A study of Mus musculus with 4 samples.

Results

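The genes described here encode the neurofilament subunits and a small set of other neural cytoskeleton and neural marker proteins, measured in mouse embryonic fibroblasts after knockdown of Xpo5, the gene of the nuclear export receptor Exportin-5. They were listed by name as Nefl, Nefm, Nefh, Ina, Map2, Mapt, Nes, Gap43, Stmn2 and S100b, and every array probe annotated to one of them was taken. Of the 10 listed genes 9 had a probe among those analysed here, out of 19886 genes with an official symbol, and they had 18 of 41174 probes. Ina, the alpha-internexin gene, had none and is not analysed here. Of the 18 probes, 13 carried the gene's present symbol and 5 carried Mtap2, the older symbol of Map2. They were chosen by their measured signals in the comparison of the siRNAs, on each array and in each experiment, so that their differences between the siRNAs are a description and carry no test.

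The cells were primary wild type fibroblasts of C57BL/6 embryos. One group received an siRNA against Xpo5 and the other a negative control siRNA, each at 60 nM by reverse transfection for 12 h. Both groups were then kept in 0.2% serum for 48 h, a level at which fibroblasts leave the cell cycle, and in 20% serum for 24 h together with a second transfection, so that all samples were collected after serum was restored. The comparison asks what the loss of Exportin-5 does to the transcripts of such cells. Each group had 2 samples, from 2 independent experiments, and each sample had its own 1-colour array. Nothing in the labels says whether the experiments used separate embryos, so p-values reflect no more than the scatter of these 4 samples.

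Neurofilaments are intermediate filaments of axons that are built from a light, a medium and a heavy subunit together with alpha-internexin, and they set axon calibre. MAP2 and tau bind along microtubules, MAP2 mainly in dendrites and tau mainly in axons, while stathmins bind free tubulin and promote microtubule turnover. Nestin is an intermediate filament protein of neural and muscle progenitors that is also found in dividing mesenchymal cells, and S100B is a calcium-binding protein best known from astrocytes and Schwann cells.

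The probes are the measured sequence of each gene, and those on which the results turn are shown 5′ to 3′ as the array files give them, with positions on the mouse mm9 build. Each probe has 60 bases. The Nefl and Map2 probes are shown by their first 30 bases, and the Nes probe by a window of 30 bases.
Nefl probe 1, chr14:68705638-68705698, plus strand: gactttcaatgtgtgctatgaatttcctcc
Nefl probe 2, chr14:68706866-68706925, plus strand: actgaagtgatctgcaattgaagtctcttt
Nefm, chr14:68738193-68738252, minus strand: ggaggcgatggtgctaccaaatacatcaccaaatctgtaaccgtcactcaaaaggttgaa
Map2 probe 1, chr1:66488783-66488842, plus strand: taatacttatgtttgtgtttttacacctag
Mapt probe 2, chr11:104179551-104182711, plus strand: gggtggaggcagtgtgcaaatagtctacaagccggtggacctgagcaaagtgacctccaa
Nes, chr3:87784308-87784367, plus strand: cttcctcccttgAATAAAgctgtagcccta
Gap43, chr16:42292428-42340593, minus strand: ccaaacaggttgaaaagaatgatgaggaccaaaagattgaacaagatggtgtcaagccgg
S100b, chr10:75722709-75722768, plus strand: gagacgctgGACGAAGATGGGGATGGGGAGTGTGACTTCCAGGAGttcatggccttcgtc

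The capitals in the Nes probe mark AATAAA, the hexamer that directs polyadenylation, which 4.78% of all probes on the array hold on the same strand. The capitals in the S100b probe mark codons that fit the calcium-binding loop of an EF hand in 1 of the 3 reading frames, a pattern found in any frame of 10 probes, or 0.0243%, of the array. The Mapt and Gap43 probes span 3161 and 48166 bases of the genome with 60 bases of sequence, so the letters of each come from stretches that lie apart in the genome. Nefl and Nefm lie beside each other on chromosome 14, with 31268 bases between Nefl probe 2 and the Nefm probe, which is on the other strand. The longest run of bases that any pair of the 18 probes had in common was 9.

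Spots with a signal well above background made up 63.0% to 64.96% of each Xpo5 siRNA array and 62.4% to 63.5% of each control array, and precision is limited by having 4 arrays. The brightest probe of the targeted gene, Xpo5, read 24.5% and 24.7% of the array's 75th percentile signal with Xpo5 siRNA, against 233% and 224% with control siRNA. On the log2 scale the difference came to -3.21 ± 0.14 (SE, with 2 arrays in each group) at a limma adjusted p of 0.0660 over all kept probes, and 0.0425 with the replicate number as a block. Over the 16 alternatives it went from 0.00564 to 0.595. Other kept Xpo5 probes read -3.07 ± 0.21 and -1.33 ± 0.45 (limma adjusted p = 0.176 and 0.428), and a further Xpo5 probe was not kept. All 13 fibroblast markers, collagen and fibronectin genes among them, were well above background on all 4 arrays.

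Probes entered the fit if the 2 arrays of either siRNA both detected them well above background, which held for 12 of the 18 probes, of 8 genes. Detection on all 4 arrays held for 10 of the 18, against 59.1% of all probes. Nefh, the heavy neurofilament gene, dropped out, as neither of its probes was well above background on any array. The other probes that dropped out were 2 of Map2, 1 of Mapt and 1 of Stmn2. Those 6 probes had processed signals of 1.43 to 4.33 units, at which no fold is given. Signals below are given as a percent of the 75th percentile signal of the same array, and differences on the log2 scale as Xpo5 siRNA minus control siRNA with the SE of the fit.

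**Figure D1:**
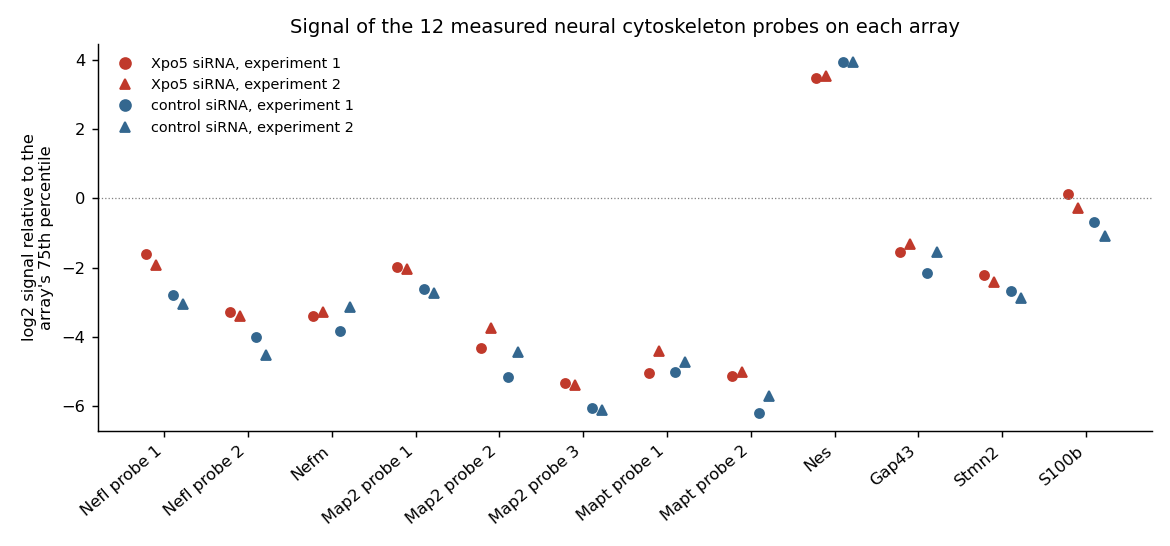
The vertical axis gives the log2 signal over the array's 75th percentile for each of the 12 kept probes (horizontal axis) on the 2 Xpo5 siRNA arrays (red) and the 2 control siRNA arrays (blue), with circles for experiment 1 and triangles for experiment 2. Red points lie above both blue points for 8 probes and below them for Nes, and the levels of different probes cannot be set against each other.

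Among the neurofilament subunits, the light chain gene Nefl was higher with Xpo5 siRNA at both of its probes, while the medium chain gene Nefm was not separated between the siRNAs. Nefl probe 1 read 32.5% and 26.3% on the Xpo5 siRNA arrays, against 14.4% and 12.0% on the control arrays. Both Xpo5 siRNA samples lay above both controls, at a difference of 1.15 ± 0.19, or 2.22-fold (n = 2 each). Within the experiments it was 1.18 and 1.13, and within the slides 0.87 and 1.43. Each slide held the Xpo5 siRNA array of 1 experiment and the control siRNA array of the other. Slide differences therefore also hold the difference between the experiments. Nefl probe 2, which lies 1228 bases further along the gene, read 10.3% and 9.37% with Xpo5 siRNA and 6.21% and 4.37% with control siRNA, a difference of 0.91 ± 0.22. The groups were again apart, and the experiments gave 0.73 and 1.099. The summed signals of the macrophage, neuron, glial and endothelial markers, given further on, were also higher with Xpo5 siRNA, as was the melanocyte sum. The fibroblast and skeletal muscle sums were higher within each experiment, with overlapping groups. The part of these cell types in the Nefl values was not tested. In a bulk sample more cells of a type and more RNA per cell cannot be told apart.

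Nefm read 9.55% and 10.3% with Xpo5 siRNA, against 7.002% and 11.2% with control siRNA. The control of experiment 2 was the highest of the 4 samples and that of experiment 1 the lowest, so the groups overlap, and the difference of 0.16 ± 0.26 was 0.45 in experiment 1 and -0.12 in experiment 2. It was -0.18 without control siRNA replicate 1, 0.50 without control siRNA replicate 2 and 0.11 without Xpo5 siRNA replicate 2. This probe was printed 10 times on each array, of which 8 to 10 spots were usable. The SD among spots of an array was 0.110 and 0.100 with Xpo5 siRNA and 0.101 and 0.0196 with control siRNA on the log2 scale. The 2 control samples were 0.68 apart, and spots of an array show measurement spread only.

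**Figure D2:**
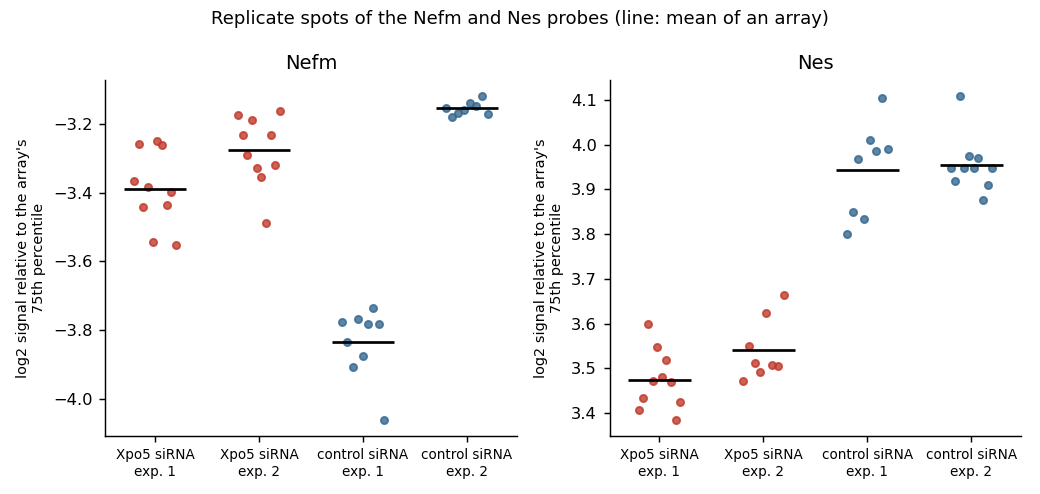
Each point is 1 usable spot of the Nefm probe (left) or the Nes probe (right), as log2 signal over the 75th percentile of the array, with the arrays along the horizontal axis and the mean of each array as a line. The Nefm spots of the 2 control siRNA arrays lie on either side of the Xpo5 siRNA spots in their means, whereas every Nes spot with Xpo5 siRNA, at 3.66 or below, lies under every control spot, at 3.799 or above.

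Nes, the nestin gene, was the only one of the 8 kept genes whose probe was lower with Xpo5 siRNA in both experiments. It read 1111% and 1164% of the 75th percentile with Xpo5 siRNA and 1537% and 1550.5% with control siRNA, so that the signal of this probe was far above background under both siRNAs. The samples of a group were close, with SDs of 0.05 and 0.01 on the log2 scale, and the groups were apart by 0.40. The difference was -0.44 ± 0.14, or 1.36-fold lower, and stood at -0.47 and -0.41 by experiment. By slide the same difference was -0.40 and -0.48. The 8 to 10 usable spots per array had SDs of 0.0661 and 0.0683 with Xpo5 siRNA and 0.104 and 0.0616 with control siRNA.

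The microtubule-binding protein genes were measured by several probes each. Map2 was higher with Xpo5 siRNA at all 3 kept probes. Probe 1, the brightest, read 25.5% and 24.0% with Xpo5 siRNA, against 16.3% and 15.0% with control siRNA, a difference of 0.66 ± 0.14 that was 0.64 and 0.69 within the experiments. Probe 2 read 5.00% and 7.39% with Xpo5 siRNA and 2.76% and 4.58% with control siRNA, a difference of 0.77 ± 0.33 with a gap of 0.13 between the groups and with 1.42 and 0.13 within the slides. It was 0.41 without control siRNA replicate 1 and 0.49 without Xpo5 siRNA replicate 2. Neither control array detected probe 3 well above background, so it was kept through the Xpo5 siRNA arrays alone. It was at least 1.60-fold higher with Xpo5 siRNA, at 2.48% and 2.36% against 1.495% and 1.44%.

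The probes of Mapt, the tau gene, disagreed. Probe 1, on chromosome 11 at 104191345 to 104191404, read 3.01% and 4.66% with Xpo5 siRNA, against 3.06% and 3.76% with control siRNA. Its groups overlap, and the difference of 0.14 ± 0.27 was -0.03 and 0.31 within the experiments. It was -0.17 without Xpo5 siRNA replicate 2 and -0.0063 without control siRNA replicate 1, against 0.46 without Xpo5 siRNA replicate 1 and 0.29 without control siRNA replicate 2. Probe 2, which lies upstream of it, read 2.83% and 3.10% with Xpo5 siRNA and 1.35% and 1.90% with control siRNA. Here both Xpo5 siRNA samples were above both controls, by 0.89 ± 0.21, although only 1 of the 2 control arrays, that of experiment 2, detected it well above background. Probe 2 therefore has no measured difference in experiment 1, and in experiment 2 the difference was 0.71. Both probes are dim, and the mean over the kept probes was 0.52.

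Gap43 and Stmn2 are genes of growing axons. Gap43, whose product organises the membrane of growing axon tips, read 33.9% and 39.7% with Xpo5 siRNA and 22.5% and 34.1% with control siRNA. The Xpo5 siRNA sample of experiment 1 was just under the control of experiment 2, so the groups overlap, at a difference of 0.41 ± 0.25. Within the experiments it was 0.59 and 0.22. Without control siRNA replicate 1 it was 0.10, and without control siRNA replicate 2 it was 0.71. Stmn2, the neuronal stathmin gene, read 21.6% and 18.9% with Xpo5 siRNA, against 15.5% and 13.6% with control siRNA, and its groups were apart at a difference of 0.47 ± 0.16, with 0.47 in either experiment.

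S100b read 109% and 82.7% of the 75th percentile with Xpo5 siRNA, against 62.4% and 47.5% with control siRNA. All samples of the first group lay above those of the second, by 0.80 ± 0.23 or 1.75-fold, and the experiments gave 0.81 and 0.80. The slides gave 0.41 and 1.20. Within each siRNA the sample of experiment 1 was the higher one.

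**Figure D3:**
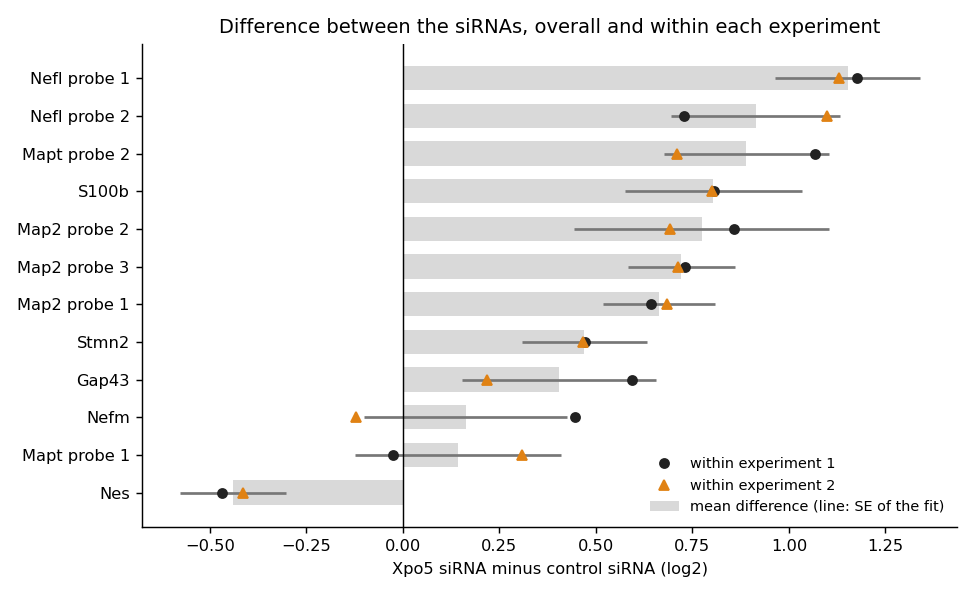
Grey bars give the mean difference between Xpo5 siRNA and control siRNA (horizontal axis, log2) for each kept probe, with lines for the SE of the fit, and the points give the difference within experiment 1 (circles) and experiment 2 (triangles). The experiments agree in sign for 10 of the 12 probes and differ for Nefm and for Mapt probe 1.

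Over the 12 kept probes, 8 were higher on both Xpo5 siRNA arrays than on either control array, 1 was lower and 3 overlapped. Among the 8, Map2 probe 3 and Mapt probe 2 were kept through the Xpo5 siRNA arrays alone, which favours a higher value there. Of all kept probes 22.7% were higher in that way and 20.4% were lower. The experiments gave the same sign for 10 of the 12, against 69.6% of all probes. In limma 0 of the 12 passed an adjusted p of 0.05, as for 0% of all 25641 kept probes, and 0 passed with the replicate block, against 0.0156% of all (0.0039% higher and 0.0117% lower). At an unadjusted p under 0.05 were 8 of the 12, against 10.8% of all probes. These 8 were 7 higher and 1 lower, against 6.65% and 4.2% of all probes. Because the genes were listed with this contrast known, nothing is read from these counts. With normexp background correction at an offset of 50, without spots of uneven local background, the values were 0.79 and 0.40 for Nefl probes 1 and 2, 0.47, 0.27 and 0.17 for Map2 probes 1, 2 and 3, 0.20 for Mapt probe 2 and 0.27 for Stmn2, while S100b read 0.69 and Nes -0.45. With normexp on all spots the SEs were larger. Nefm read 1.26 ± 0.98, Mapt probe 1 read 1.59 ± 1.05, Gap43 read 1.12 ± 0.81 and Nes -1.74 ± 1.02. The brightest Xpo5 probe was nearer 0 at -2.04 ± 0.82.

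The genes were listed by the comparison of the siRNAs, not by the difference between the experiments. Their signals on each array and in each experiment were known then, so this difference is a description too. It was fitted in limma as experiment 1 minus experiment 2 with the siRNA as a term. Of the 12 probes 6 were higher in experiment 1 and 6 lower, and for all 12 the gap had the same sign under both siRNAs. The 12 probes are of 8 genes, and over 25629 probes the gaps under the 2 siRNAs correlated at r = 0.515. The share of all probes with that agreement is not given here, so nothing is read from this count. In this fit 0 of the 12 passed an adjusted p of 0.05, against 0% of all kept probes. An unadjusted p under 0.05 was found for 4, against 23.3% of all. These 4 were 1 higher and 3 lower in experiment 1, against 9.62% and 13.7% of all. The lowest was Map2 probe 2 at -0.65 ± 0.12 (limma adjusted p = 0.123), and its other probes read 0.10 and 0.06. S100b was higher in experiment 1 by 0.40 ± 0.11 (limma adjusted p = 0.155), with gaps of 0.40 in each siRNA group. Gap43 and Mapt probe 1 read -0.41 ± 0.14 and -0.46 ± 0.14 (limma adjusted p = 0.201 and 0.168). Nefl probes 1 and 2 read 0.28 and 0.32, Nefm read -0.40, and Nes differed by -0.04 ± 0.11.

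**Figure D4:**
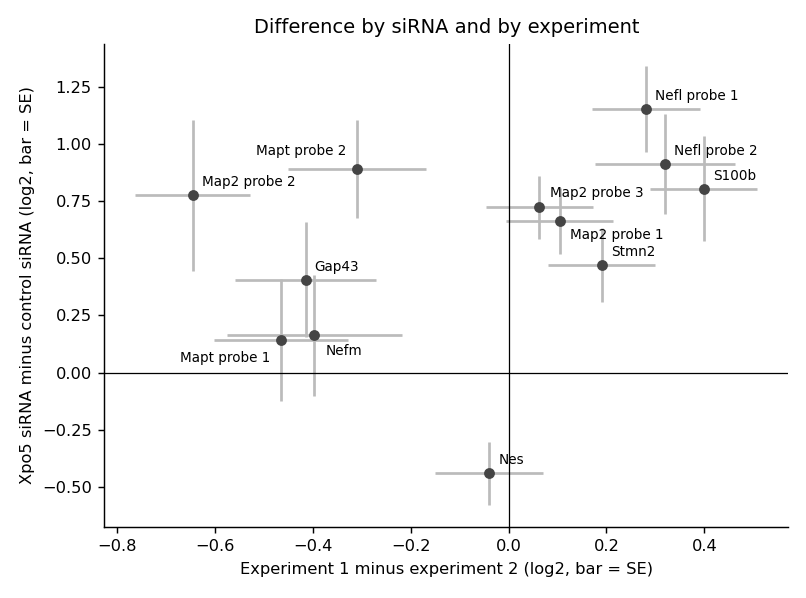
Each kept probe is placed by its difference between the experiments (horizontal axis, experiment 1 minus experiment 2, log2) and between the siRNAs (vertical axis, Xpo5 siRNA minus control siRNA, log2), with lines for the SE of the fit. Nefl, S100b and Stmn2 lie to the right of 0 and Gap43, Nefm, Mapt and Map2 probe 2 to the left, while Nes lies near 0 on the horizontal axis.

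Related genes that are not members were taken from 6 lists and judged on the brightest kept probe of each gene. Of these genes 0 passed limma at an adjusted p of 0.05, with or without the replicate block. At the gene level 26% of all genes were higher and 21.5% lower on both Xpo5 siRNA arrays, and the median difference of all 13923 genes was 0.02. At an unadjusted p under 0.05, 7.74% of genes were higher and 4.12% lower. Of the other intermediate filament and linker genes, 12 of 14 were kept, 3 were higher without overlap, 0 were lower and 9 overlapped, with a median of 0.17. Sync, a filament protein of muscle, read 28.5% and 26.8% with Xpo5 siRNA, against 21.6% and 16.2% with control siRNA. Vim, the vimentin gene and main filament of fibroblasts, differed by 0.04 ± 0.14. Krt8 read -0.60 ± 0.38, Krt19 0.35 ± 0.16 and Synm 0.20 ± 0.16. Peripherin and glial filament genes, Prph and Gfap, were not kept.

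Of 22 tubulin, other microtubule-associated protein and stathmin genes 18 were kept, with a median of -0.02, 3 higher and 6 lower without overlap. Map1a read 52.4% and 42.9% with Xpo5 siRNA and 32.1% and 27.3% with control siRNA (difference 0.68 ± 0.18, limma adjusted p = 0.359), and Dclk1, a kinase of the doublecortin family, differed by 0.55 ± 0.16. Stmn1, the stathmin of dividing cells, stood the other way at 4114% and 3258% with Xpo5 siRNA, against 5953% and 4932% with control siRNA (difference -0.57 ± 0.20, limma adjusted p = 0.431). Tubb2b differed by 0.44 ± 0.17. The neuronal doublecortin gene Dcx and Stmn3 were not kept.

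Growth cone and axon adhesion genes had a median of 0.18 over 13 kept of 16, with 4 higher and 3 lower without overlap. The adhesion genes Ncam1 and Nrcam differed by 0.53 ± 0.14 and 0.48 ± 0.16, Gprin1 by 0.38 ± 0.14 and Dpysl4 by -0.40 ± 0.15. The 12 genes of kinases, their activators, a phosphatase subunit and an isomerase that act on tau or neurofilaments were all kept, with a median of -0.08, 0 higher and 3 lower without overlap. Gsk3a, Gsk3b, Mark2 and Cdk5r2 read -0.44, -0.24, -0.18 and -0.52. The list of S100 genes other than S100b, which also holds the S100P-binding protein gene S100pbp, had a median of -0.06 over 12 kept of 14, with 3 higher and 0 lower without overlap. S100a4 read 0.48 ± 0.14, S100a13 0.31 ± 0.19 and S100pbp -0.24. Of 18 regulators of neuronal genes 10 were kept, with a median of 0.16, 3 higher and 3 lower without overlap. Among them Rcor1, a corepressor that works with REST, read 0.59 ± 0.21 and Hey1 0.69 ± 0.31, while Ptbp1, a splicing repressor of neuronal exons, read -0.39 ± 0.17. Neurog1 read 0.48 ± 0.23.

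**Figure D5:**
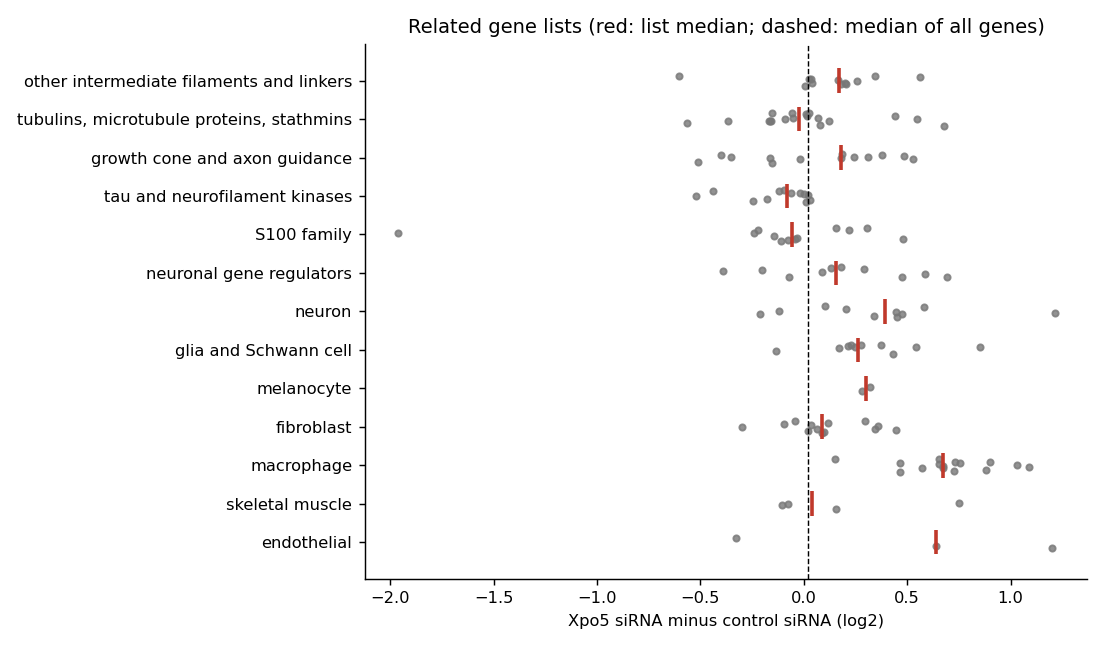
Each grey point is the difference between Xpo5 siRNA and control siRNA (horizontal axis, log2) of 1 gene that is not a member, by list (vertical axis), with the list median in red and the median of all genes, 0.02, as a dashed line. The macrophage list stands to the right with its median at 0.67, and the S100 point farthest to the left is S100a9, which 1 of the 2 Xpo5 siRNA arrays did not detect well above background.

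Markers of other cell types were read beside the members. Of 19 neuron markers 10 were kept, 4 higher and 0 lower without overlap, with a median of 0.39 and the lowest at -0.21. Their summed signal was 4662% to 4722% of the 75th percentile with Xpo5 siRNA and 3634% to 3694% with control siRNA. Uchl1 alone made up most of that sum, at 3126% and 3524% with Xpo5 siRNA, against 2412% and 2449% with control siRNA. Eno2 differed by 0.58 ± 0.23 and Syt1 by 0.45 ± 0.29. Syn2 was not well above background on the control array of experiment 1. It therefore has no measured difference in that experiment, and in experiment 2 the difference was 0.31. The fit over all 4 arrays, which includes that control array, gave 1.21 ± 0.53 for Syn2. Elavl3, Snap25, Syp, Gad1, Gad2, Slc17a7, Chga, Chgb and Scg2 were not kept.

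Of 17 glial and Schwann cell markers 10 were kept, 5 higher and 1 lower without overlap, with a median of 0.26 and a summed signal of 242% to 251% with Xpo5 siRNA and 164% to 206% with control siRNA. Fabp7, a fatty acid-binding protein of radial glia, read 38.0% and 37.1% with Xpo5 siRNA, against 21.2% and 20.4% with control siRNA (difference 0.85 ± 0.14, limma adjusted p = 0.309). The myelin gene Mbp differed by 0.54 ± 0.15 and Cnp by 0.28 ± 0.20, and the kept markers ran from -0.13 to 0.85. Gfap, Aqp4, Erbb3, Mog, Olig1 and Olig2 were among those not kept.

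Macrophage markers were kept for all 15 genes, of which 12 were higher and 0 lower without overlap, with a median of 0.67. Their summed signal was 7203% to 8491% with Xpo5 siRNA and 4222% to 5954% with control siRNA, and their median between experiments was 0.40. Laptm5, C1qa, C1qb and Aif1 differed by 0.88, 0.90, 0.73 and 1.09. Of 7 endothelial markers 3 were kept, Kdr at 1.20 ± 0.18, Tek at 0.64 ± 0.15 and Emcn at -0.33 ± 0.16, with summed signals of 93.6% to 96.4% and 77.2% to 82.5% and with Pecam1, Cdh5, Tie1 and Cldn5 not kept. Skeletal muscle markers, 4 kept of 10, had a median of 0.04 and ran from -0.10 to 0.75 at Tnnt3, and the 2 kept melanocyte markers of 6 read 0.32 for Pmel and 0.28 for Mitf. The fibroblast markers had a median of 0.09, with 5 of 13 higher, 1 lower and 7 overlapping. Lum read 0.45, Twist1 0.34, Col1a2 0.30 and Dcn 0.36, while Pdgfrb, a growth factor receptor, read -0.30 and was the 1 lower without overlap. The part of these cell types in the values of the members was not tested.

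The genes whose 4 array values were most like those of Nefl probe 1 were sought over 21626 probes, each centred on its own mean. These probes had an official symbol and were well above background on all arrays. Each gene was placed by its nearest probe. Nefl itself was left out of the order, so nothing is said of Nefl probe 2. The 5 nearest were Sh3tc1, Nol4l, Kdr, Fcrls and Mosmo, at root mean square distances of 0.0395, 0.0404, 0.0439, 0.0668 and 0.0674 on the log2 scale. They differed between the siRNAs by 1.0995, 1.14, 1.20, 1.07 and 1.095. Among 13439 genes S100b stood 106th in that order, at 0.18, Map2 317th, Stmn2 823rd, Gap43 3887th, Nefm 8055th, Mapt 9056th and Nes 12914th, at 0.81. The place of Mapt rests on probe 1, as probe 2 was not well above background on all arrays. This order uses the same siRNA differences by which the members were chosen. The distances rest on 4 arrays and are a description.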

How the data were processed

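Cy3-labelled RNA from 4 samples was measured on 1-colour Agilent arrays, as the labels' protocols record. Scanner output deposited by the authors holds a spot intensity, extracted with Agilent Feature Extraction 10.5.1.1 and annotated on mm9, per the file headers. Its processed signal is background-subtracted and spatially detrended, per the file headers. Log2 values in the authors' series table equal the log2 of that signal plus 1 constant per array for 99.4% to 99.6% of probes within 0.001, with an array median of 5.33.

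The log2 processed signal minus the 75th percentile of the array over 43379 non-control spots was used. Outlier spots (77 to 134 per array) were left out, none was saturated, and spots of a probe were averaged to 41174 probes. Of these 25641 were kept. Names came from the RefSeq table of GRCm38.p6, with 26690 probes matched by accession, 5189 by symbol, 952 by synonym and 8343 by none. Fits used limma 3.58.1 in R 4.3.3, two-sided, over all kept probes, with Benjamini-Hochberg adjustment, no block and no trend, after tests on simulated data. A "fold at least" sets the brighter mean against, per array, the higher of the dim signal and the lowest signal well above background.

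Members and lists were chosen with earlier results of these data known. The rule named all member probes, Xpo5, up to 4 genes per list by smallest p and the 5 genes nearest to Nefl, taken by its probe 1. Vim, Tubb3, Rest and Pdgfrb were chosen after their values were seen. Some genes of the marker lists are not reported here by name. Replicate numbers were read as the experiments, which the labels do not state outright. Deviations of same-numbered arrays correlated at r = 0.515 over 25629 probes, which are not independent. Each slide held 1 array per group, from different experiments. Alternatives were background correction, scaling, filters, probe summaries, trend, slide or replicate block, each array left out, and the deposited table. The smallest exact permutation p for 2 against 2 is 0.333, so that test was not applied.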

Additional observations from a re-analysis of the deposited data

How the results depend on the processing

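The count of probes that passed between the siRNAs was 0 by limma, with 2780 at an unadjusted p under 0.05. It was 1 with normexp without spots of uneven local background, 1 with probes averaged per gene, 1 with an intensity trend, 3 with 1 probe per gene, 4 with the replicate block, and 10 with median scaling or the deposited table, 2 higher and 8 lower. Leaving out arrays gave 0 to 6, with 6 without control siRNA replicate 1, 5 without control siRNA replicate 2 and 0 without either Xpo5 siRNA replicate. Between the experiments it was 0, against 3301 with that same normexp setting and 2971 with an intensity trend. The cause was not tested. Median scaling moved the median of all probes by -0.11 and the deposited table by -0.12, and no member changed sign under a scaling. The blocks, the trend, the filters and 1 probe per gene leave a member's difference unchanged by design. Leaving out 1 of 2 arrays can shift it only within the gap between those arrays. The count of values that moved little is therefore no measure of robustness. Of 182 member values under alternatives, 152 moved by less than the spread between replicates, 27 by more, 11 of these with normexp on all spots. The other 3 turned sign: Nefm read -0.18 without control siRNA replicate 1 (-0.18 to 0.50 over the arrays left out), and Mapt probe 1 read -0.17 without Xpo5 siRNA replicate 2 and -0.0063 without control siRNA replicate 1 (-0.17 to 0.46). The dimmest kept probe of Xpo5, at -1.33, read 1.26 ± 1.06 with normexp on all spots. The replicate block changed no call of a member, and with the block the fit has 1 residual degree of freedom. Dim signal limits Nefh, Map2 probe 3 and both Mapt probes.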

Other observations

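S100a9, a calprotectin subunit of myeloid cells, read 0.266% and 6.81% of the 75th percentile with Xpo5 siRNA and 11.05% and 2.49% with control siRNA. The first of these values was not well above background, so it has no measured difference in experiment 1, and in experiment 2 the difference was 1.45. Cdk5r2, an activator of the kinase Cdk5, read 55.8% and 28.4% with Xpo5 siRNA and 108.8% and 30.03% with control siRNA, so that the gap between experiments was 1.41. Tubb3, a beta-tubulin used as a neuronal marker, read 537% and 576% with Xpo5 siRNA, against 748% and 687% with control siRNA, a difference of -0.37 ± 0.15 (limma adjusted p = 0.471). Rest, the repressor of neuronal genes, differed by 0.09 ± 0.15.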
